A study of Rattus norvegicus with 19 samples.

Results

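Wild-type Sprague-Dawley rat embryos of embryonic day 14 gave primary cultures of ventral spinal cord, which were exposed for 90 min to synthetic long-chain polyphosphate (polyP, called polyPL in the labels) at 100 μM, or were left untreated as controls. The comparison covers 5 polyP and 5 control libraries of the 19 in the series. Of the other libraries, 4 came from wild-type cultures given wtSOD1-ACM and 5 from cultures given mutSOD1-ACM, media taken from mouse astrocytes with a human SOD1 transgene, wild type or the G93A mutant. They entered the model for the estimate of the spread and are not described for their own sake. Levels are the deposited FPKM, the fragments of a gene scaled to 1e+06 fragments and to a kilobase of its length. Genes entered where 4 or more of the 19 libraries reached 1 FPKM, 11887 of 15597 in all. The remaining 3710 genes were not tested. Just inside that minimum stood Acan, Cpn1 and Dmbx1, which averaged 0.460, 0.566 and 0.674 FPKM in polyP and 0.706, 0.790 and 0.644 FPKM in control. Just outside it stood Pglyrp1, Spx and Tgm1, which averaged 0.396, 0.692 and 0.386 FPKM in polyP and 0.830, 0.986 and 0.614 FPKM in control. Per the labels, RNA came from independent cultures of each condition. One field of the labels places the cultures at 7 days in vitro and another places the treatment at 4 days, and none says whether an untreated culture received a change of medium or a vehicle.

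Polyphosphate is a linear chain of phosphate groups joined by the same high-energy bonds as in ATP. It is stored and released by platelets, mast cells and, in the nervous system, astrocytes. Outside the cell it binds many proteins, speeds blood coagulation, chelates divalent cations such as calcium, and in neural tissue has been linked to ATP receptors of the P2Y family and to changes in the excitability of neurons. The series title asks for transcripts that polyP and medium of mutant SOD1 astrocytes induce in common, and the comparison with untreated cultures gives the polyP side of that question.

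The libraries were checked before the genes. Within a group, Pearson's r across genes of log2 values was 0.977 to 0.997 among polyP and 0.956 to 0.994 among control libraries, and relative depth, recovered from the steps in the values of rarely detected genes, ran from 0.769 to 1.48 over the 10 libraries. The absolute depth is unknown. The libraries of all 4 conditions fell into 2 sets of cultures: set 1 holds replicates 1 to 3 of polyP and of control, and set 2 holds replicates 4 and 5 of each. Set 1 divides again, with polyP 1, polyP 2 and control 1 in one class and polyP 3, control 2 and control 3 in the other, so class and treatment are unevenly mixed there.

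Libraries also differed by group in their summed FPKM, which was 483794 to 515541 in polyP and 446366 to 479964 in control, with no overlap (means 502342 ± 12154 and 464188 ± 13827, SD, n = 5 each; exact two-sided permutation p = 0.00794, the smallest that 5 against 5 allows). The conditioned-medium libraries lay at 463428 to 487528. A sum of FPKM rises when fragments move to shorter transcripts, and how much of a gene's difference goes with this sum and how much with polyP cannot be told apart by the design. In a fit with the sum as a covariate, added after the data were seen, the median standard error rose to 0.166, against 0.0996 without it, and limma called 0 genes in either direction (1044 higher and 489 lower at an unadjusted p under 0.05; smallest adjusted p = 0.0547). With the 3 classes of cultures as a further term, 55 genes were higher and 20 lower.

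**Figure D1:**
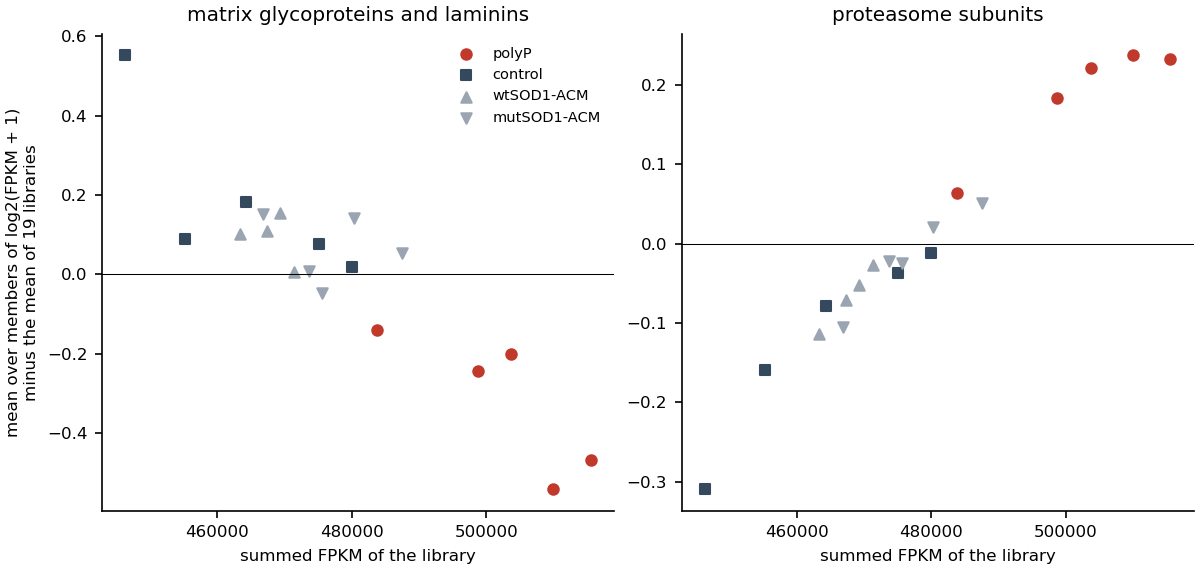
Mean over the members of 2 gene lists of log2(FPKM + 1), minus the mean of the 19 libraries (y axis), against the summed FPKM of the library (x axis). Each point is a library: polyP (red), control (dark squares) and the conditioned-medium groups (grey). The 5 polyP libraries have the highest sums but for 1 library of mutSOD1-ACM that lies above polyP replicate 3. The matrix list is lowest and the proteasome list highest in polyP, and the proteasome list of the other libraries also climbs with the sum.

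Across the 11887 genes, 2736 were higher in polyP (23.0%) and 1043 were lower (8.77%) at an adjusted p under 0.05 (limma on log2(FPKM + 1), Benjamini-Hochberg over all genes tested). Small rises were common and large changes were mostly falls. The median log2 difference was 0.31 among the genes called higher and -0.40 among those called lower, and 0.04 over all genes. Of the called genes that moved by at least 1 on the log2 scale, 24 were lower (0.202%) and 1, known only by an identifier, was higher (0.00841%). The polyP and control values did not overlap at 1730 genes that lay higher (14.6%) and 512 that lay lower in polyP (4.31%). The split depends on scaling: brought to equal summed FPKM, 1404 genes were higher (11.8%) and 1667 lower (14.0%), and the median over all genes shifted by -0.10. Median-of-ratios scaling gave 1793 higher (15.1%) and 1545 lower (13.0%), and quantile normalization 2320 higher (19.5%) and 1105 lower (9.30%). Under all 3 scalings alike, 1349 of the 2736 rises and 924 of the 1043 falls were still called. These counts do not rank the directions, since equal summed FPKM and median-of-ratios scaling both shift the differences downward. All 1043 falls stayed called under either. With each library left out in turn, 2084 of the rises and 672 of the falls were called every time. With the 3 classes of cultures as a term, 4121 were higher (34.7%) and 2510 lower (21.1%). In bulk cultures, fewer cells of a type and less RNA per cell cannot be told apart.

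**Figure D2:**
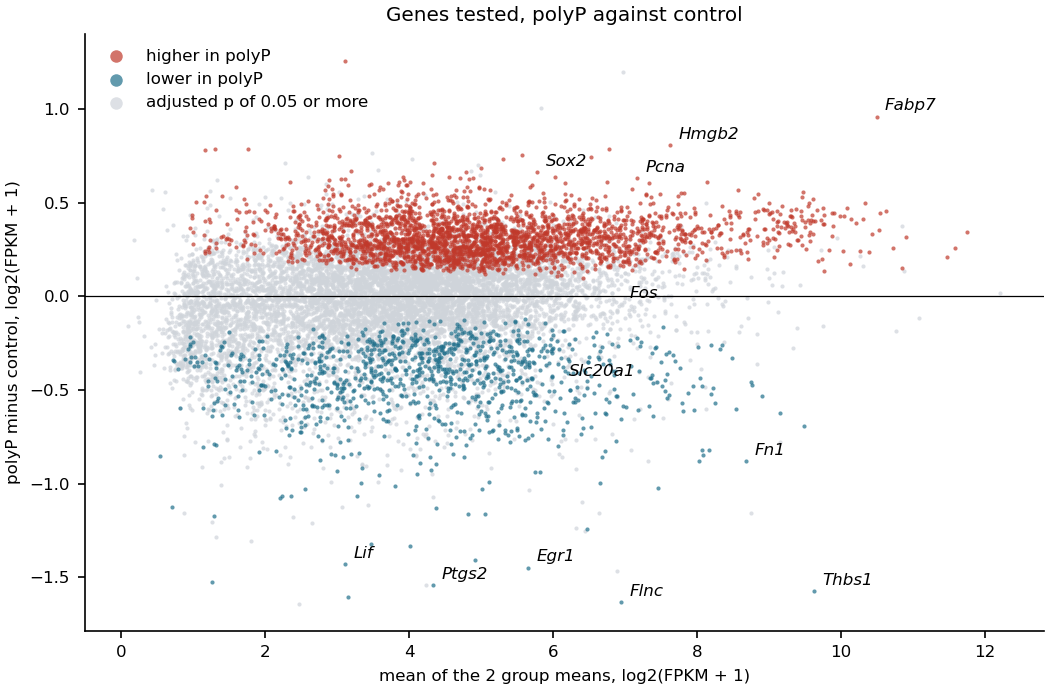
Difference between polyP and control on the log2(FPKM + 1) scale (y axis) against the mean level (x axis) for the 11887 genes tested. Called rises are red and called falls blue. Rises form a band mostly below 1, the called falls reach -1.63 at Flnc, and Fos lies near 0.

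Among the largest falls were genes that cells switch on within minutes of a stimulus, many of them through ERK and serum response factor signalling. Egr1 (identifier 24330), a zinc-finger transcription factor of the immediate early class, had 27.0, 27.5, 32.5, 21.5 and 21.0 FPKM in the polyP cultures, against 57.0, 59.7, 69.0, 84.7 and 94.1 FPKM in the controls. Every polyP value was below every control value. The log2 difference was -1.45 ± 0.14 (SE, limma adjusted p = 1.93e-05). Its relative Egr2 (114090) had 8.41, 8.07, 10.7, 5.99 and 7.71 FPKM in the polyP cultures, against 16.9, 22.0, 20.5, 23.6 and 27.2 FPKM in the controls, again without overlap, with a log2 difference of -1.33 ± 0.12 (SE, limma adjusted p = 1.93e-05). Egr3 fell by 1.07 on the log2 scale and Nr4a1, an orphan nuclear receptor induced with the EGR factors, by 0.76 (limma adjusted p = 0.000131 and 0.000861). Nab2, a corepressor that EGR factors induce and that restrains them, fell by 0.51 (limma adjusted p = 0.000137). Of the 9 tested members of the EGR and NR4A list, 5 were lower and 0 higher, with a median of -0.51. The fall was larger in set 2 (median -0.77) than in set 1 (-0.34), a difference that was not tested.

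The sequences before the Egr1 and Egr2 start sites carry CArG boxes, the element that serum response factor binds, and are shown because both genes are among the largest falls. They are the 250 bases upstream of the start site, 5′ to 3′ on the strand of the gene, from RefSeq on build GRCr8, with the CArG boxes in capitals. Egr1 lies on the plus strand at chr18:26736828-26737077 and Egr2 on the minus strand at chr20:21054442-21054691.
Egr1: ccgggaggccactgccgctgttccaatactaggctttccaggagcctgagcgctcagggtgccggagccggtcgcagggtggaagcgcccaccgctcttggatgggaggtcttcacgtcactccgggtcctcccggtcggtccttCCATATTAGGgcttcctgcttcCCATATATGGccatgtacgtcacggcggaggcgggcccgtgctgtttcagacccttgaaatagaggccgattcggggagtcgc
Egr2: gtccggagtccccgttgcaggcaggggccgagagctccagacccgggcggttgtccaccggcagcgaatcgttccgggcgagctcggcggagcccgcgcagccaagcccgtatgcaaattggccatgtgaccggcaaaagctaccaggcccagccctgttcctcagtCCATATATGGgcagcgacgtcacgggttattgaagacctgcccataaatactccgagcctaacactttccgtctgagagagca
Egr1 held 2 boxes, whose first bases were 105 and 83 bases upstream of the start site, and Egr2 held 1, at 83 bases. On both strands, a CArG box was present in 103 of the 9586 promoters that matched a tested gene (1.07%), in 30 of 2296 promoters of genes called higher (1.31%), in 12 of 796 of those called lower (1.51%), and in 2 of 15 among called falls of at least 1. Those 2 are Egr1 and Egr2 themselves, the promoters shown. The 9-base EGR site GCGTGGGCG was present in 0.96% of all promoters, 0.653% of those called higher and 2.26% of those called lower. A match describes the letters only.

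Not all early genes behaved alike. Fos, the founding member of the AP-1 family, had 163, 137, 139, 89.1 and 78.1 FPKM in the polyP cultures, against 151, 101, 163, 94.2 and 107 FPKM in the controls. The groups overlapped and the log2 difference was -0.04 ± 0.27 (SE, limma adjusted p = 0.92). In the FOS and JUN list 3 of 12 members were lower and 0 higher: Fosl1 (-0.79), Junb (-0.67) and their small partner Maff (-0.33). Among genes induced by synaptic activity, Arc, which encodes a capsid-like protein that regulates AMPA receptors, had 24.0, 23.1, 23.8, 17.8 and 20.3 FPKM in the polyP cultures, against 35.4, 37.8, 35.8, 55.2 and 62.4 FPKM in the controls. No values overlapped, and the log2 difference was -0.99 ± 0.15 (SE, limma adjusted p = 0.000177). Vgf, a precursor of secreted neuropeptides, had 159 to 205 FPKM in polyP and 295 to 393 FPKM in control, a difference of -0.88 (limma adjusted p = 4.26e-05). Of 20 synaptic activity effectors 5 were lower and 1 higher. The phosphatase gene Dusp2 fell by 0.64, and of 11 DUSP genes 2 were lower and 1 higher. Of all genes tested, 8.77% were lower and 23.0% higher.

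Secreted and receptor genes of the same response were lower too. Ptgs2 (29527), the inducible cyclooxygenase that makes prostaglandin precursors, had 8.76, 10.8, 12.0, 7.82 and 7.69 FPKM in the polyP cultures, against 25.5, 29.1, 25.4, 33.3 and 32.0 FPKM in the controls. The lowest control value was more than 2 times the highest polyP value, and the log2 difference was -1.54 ± 0.11 (SE, limma adjusted p = 8.49e-07), the smallest p of all genes. Hbegf (25433), a membrane-anchored ligand of the EGF receptor, had 56.1, 57.2, 64.5, 36.0 and 48.0 FPKM in the polyP cultures, against 146, 131, 100.2, 123 and 120.0 FPKM in the controls, with no overlap and a log2 difference of -1.25 ± 0.12 (SE, limma adjusted p = 3.09e-05). Areg, another ligand of that receptor, fell by 0.82. Lif, a cytokine of the interleukin-6 family, had 2.35 to 6.26 FPKM in polyP and 8.13 to 16.5 FPKM in control, and its relative Clcf1 had 1.53 to 6.50 FPKM in polyP and 6.25 to 17.1 FPKM in control. Their log2 differences were -1.43 and -1.61 (limma adjusted p = 0.000251 and 0.00126), and only the values of Clcf1 overlapped. Bdkrb2, the B2 bradykinin receptor, had 2.07 to 2.59 FPKM in polyP and 4.26 to 7.15 FPKM in control (-1.07, limma adjusted p = 3.09e-05). Of 30 secreted growth factors 8 were lower and 0 higher, and of 20 cytokines and their receptors 5 were lower and 0 higher.

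Several of these genes were still called beside the summed FPKM. With the sum and the 3 classes in the fit, Ptgs2 differed by -1.22, Egr2 by -1.09, Egr3 by -1.12, Lif by -1.12, Bdkrb2 by -0.73 and Dusp2 by -0.80 (limma adjusted p = 0.0165, 0.0448, 0.0423, 0.00593, 0.0422 and 0.0398). Egr1 and Hbegf differed by -1.37 and -0.95 and missed the threshold (limma adjusted p = 0.0545 and 0.0526). With the sum alone as a covariate, Egr1 differed by -1.40 and Ptgs2 by -1.27, and neither was called.

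**Figure D3:**
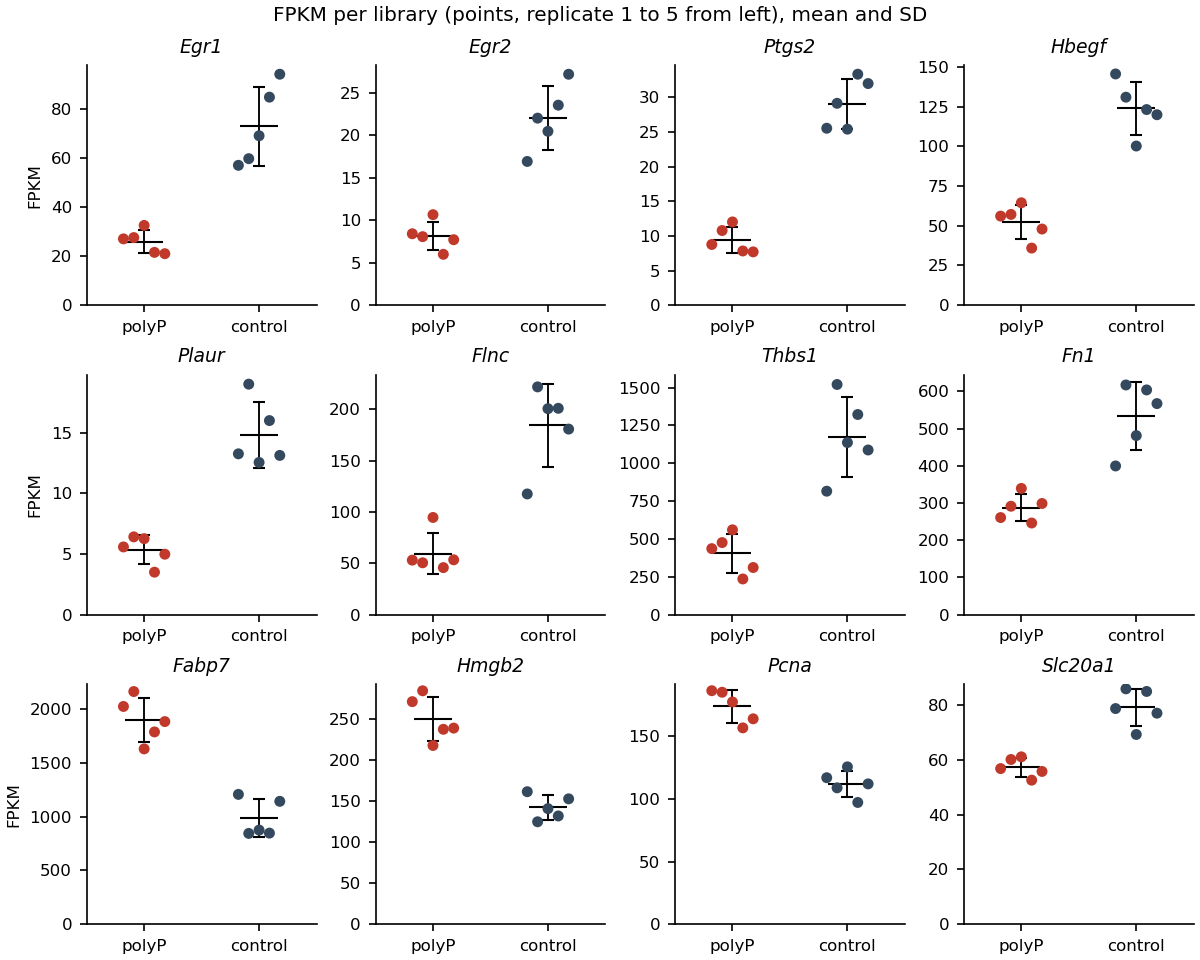
FPKM of 12 genes in each polyP library (red, left) and each control library (dark, right), with the mean and SD of 5 libraries. The groups do not overlap at any of the 12 genes, and Fabp7, Hmgb2 and Pcna are the ones with the higher values in polyP.

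Genes of plasminogen activation were lower. This protease system turns plasminogen into plasmin, which cleaves fibrin and matrix proteins. Plaur (50692), the urokinase receptor, had 5.58, 6.41, 6.26, 3.50 and 4.98 FPKM in the polyP cultures, against 13.3, 19.0, 12.5, 16.0 and 13.1 FPKM in the controls. No polyP value reached a control value, and the log2 difference was -1.32 ± 0.15 (SE, limma adjusted p = 6.47e-05). Plau, urokinase itself, had 9.24 to 21.4 FPKM in polyP and 24.1 to 56.5 FPKM in control, and Plat, tissue plasminogen activator, had 184 to 229 FPKM in polyP and 251 to 382 FPKM in control; neither overlapped between the groups. Their log2 differences were -1.16 and -0.61. F3, tissue factor, the trigger of coagulation, differed by -0.63 (limma adjusted p = 0.000604, 0.000258 and 0.00017). Of 9 tested genes of the list 5 were lower and 0 higher (median -0.61). The median was -0.28 with the sum as a covariate, and no member was called there.

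Matrix genes and the integrins that bind the matrix held many falls. Fn1 (25661), fibronectin, had 261, 291, 339, 246 and 299 FPKM in the polyP cultures, against 399, 617, 481, 604 and 567 FPKM in the controls. The groups did not overlap and the log2 difference was -0.88 ± 0.12 (SE, limma adjusted p = 0.000131). Tnc, tenascin C, had 56.1 to 73.8 FPKM in polyP and 92.4 to 192 FPKM in control, and Lamc1, the gamma 1 chain of laminins, had 60.4 to 87.6 FPKM in polyP and 100.5 to 182 FPKM in control. Both lay wholly below control, by -0.999 and -0.83 on the log2 scale (limma adjusted p = 0.000131 and 0.000204). Of 27 matrix glycoproteins and laminins 16 were lower and 0 higher (median -0.60). Of 17 collagens 13 were lower and 0 higher (median -0.68, no member above -0.29), although the groups overlapped at all but 1. Col5a1, a regulator of fibril diameter, had 67.8, 72.1, 72.5, 47.0 and 50.7 FPKM in the polyP cultures, against 92.3, 126, 98.7, 104 and 93.9 FPKM in the controls, and was the collagen without overlap; its log2 difference was -0.74 ± 0.11 (SE, limma adjusted p = 0.000215). Col4a1, of basement membranes, had 153 to 282 FPKM in polyP and 239 to 454 FPKM in control (-0.82, limma adjusted p = 0.00161).

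Integrins, the receptors for these proteins, were lower at 6 of 13 members and higher at 0 (median -0.53). Itga5, the fibronectin receptor chain, had 13.1, 13.8, 17.0, 11.4 and 12.5 FPKM in the polyP cultures, against 21.9, 32.7, 24.8, 26.5 and 24.9 FPKM in the controls. All polyP values were below control, with a log2 difference of -0.90 ± 0.11 (SE, limma adjusted p = 6.47e-05). Its partner Itgb1 had 247 to 326 FPKM in polyP and 367 to 526 FPKM in control (-0.60, limma adjusted p = 0.000367). Of 17 matrix proteases and inhibitors 5 were lower, among them the gelatinase Mmp2 (-0.57), and 0 higher. Focal adhesion proteins counted 3 higher and 3 lower of 21, beside the 23.0% of all genes called higher and the 8.77% called lower.

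The differences of the matrix lists were smaller once the summed FPKM entered the fit. The mean of the matrix glycoprotein list, relative to the 19 libraries, was -0.54 to -0.14 in polyP and 0.02 to 0.55 in control. Within control this mean was highest in replicate 2, which has the smallest sum. In mutSOD1-ACM replicate 2, whose sum of 487528 is above the 483794 of polyP replicate 3, the mean was 0.05, against -0.14 in that polyP library. With the sum as a covariate the medians were -0.14 for collagens, -0.30 for matrix glycoproteins and -0.02 for integrins, against -0.68, -0.60 and -0.53 without it, and no member was called.

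Cytoskeletal and YAP target genes held both rises and falls. SRF and YAP targets counted 9 higher and 9 lower of 31 tested (median 0.06), beside the 23.0% of all genes called higher and the 8.77% called lower. The counts were 6 higher and 9 lower at equal summed FPKM, and 4 higher and 9 lower with quantile normalization. Flnc (362332), the actin cross-linker filamin C, had 53.1, 50.6, 94.7, 45.9 and 53.5 FPKM in the polyP cultures, against 118, 222, 201, 201 and 181 FPKM in the controls. The highest polyP value, in replicate 3, was below the lowest control value, and the log2 difference was -1.63 ± 0.21 (SE, limma adjusted p = 0.0001). Thbs1 (445442), thrombospondin 1, an adhesive matrix glycoprotein and YAP target, had 436, 476, 560.3, 236 and 311 FPKM in the polyP cultures, against 815, 1520.2, 1137, 1322 and 1088 FPKM in the controls, with no overlap and a log2 difference of -1.58 ± 0.20 (SE, limma adjusted p = 9.12e-05). Ctgf and Cyr61, matricellular proteins that serve as readouts of YAP, had 488 to 602 FPKM in polyP and 709.8 to 1004 FPKM in control for Ctgf and 166 to 223 FPKM in polyP and 273 to 406 FPKM in control for Cyr61 (-0.69 and -0.85, limma adjusted p = 0.00021 and 0.000211). Vcl, vinculin, named after its values were seen, was lower by 0.46 on the log2 scale.

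Some contractile members of the SRF and YAP list went the other way. The list of myosins and contractile regulators counted 3 higher and 3 lower of 22, beside 23.0% and 8.77% of all genes. Myl9, the regulatory light chain of smooth muscle and nonmuscle myosin, had 168, 196, 176, 197 and 224 FPKM in the polyP cultures, against 146, 98.0, 122, 114 and 156 FPKM in the controls. Its groups did not overlap and the log2 difference was 0.60 ± 0.11 (SE, limma adjusted p = 0.000663). Tagln, an actin-binding protein of smooth muscle, had 1109.9 to 1395 FPKM in polyP and 728 to 1112 FPKM in control (0.47, limma adjusted p = 0.00457). Actb had 3138 to 3627 FPKM in polyP and 2525 to 2960.2 FPKM in control (0.26), and is uncertain because it has processed copies, and how shared reads were handled was not stated. The 8 markers of pericytes and smooth muscle summed to 1942 to 2490 FPKM in polyP and 1228 to 1969 FPKM in control, and their part in these rises was not tested. With the sum as a covariate the log2 differences were -0.71 for Flnc and -0.65 for Thbs1 but 0.01 for Myl9, 0.01 for Actb and -0.11 for Tagln.

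Several families of cell-surface receptors and adhesion proteins were lower. Of 9 lipoprotein receptor genes 8 were lower (median -0.60). Lrp1, an endocytic receptor for many ligands, had 56.1, 44.9, 52.9, 42.6 and 42.2 FPKM in the polyP cultures, against 70.6, 109, 82.9, 83.2 and 75.9 FPKM in the controls, and the groups did not overlap (log2 difference -0.80 ± 0.11 SE, limma adjusted p = 0.000131). Of 17 cadherins, protocadherins and FAT genes 11 were lower (median -0.29), with Celsr2, a planar polarity cadherin, at 25.7 to 34.6 FPKM in polyP and 41.6 to 53.1 FPKM in control and Fat1, an atypical cadherin, at 42.6 to 69.8 FPKM in polyP and 77.5 to 122 FPKM in control. Of 16 dyneins, kinesins and giant cytoskeletal genes 7 were lower, among them Plec (-1.16), the cytolinker plectin, and Dync1h1 (-0.53), the dynein heavy chain. No member of these lists was higher. Of 16 Eph receptors and ephrins 6 were lower and 0 higher, and Epha2, a receptor tyrosine kinase, had 13.9, 15.9, 15.3, 13.6 and 16.8 FPKM in the polyP cultures, against 28.8, 44.2, 31.1, 60.8 and 51.5 FPKM in the controls. Its values did not overlap (log2 difference -1.41 ± 0.21 SE, limma adjusted p = 0.00017). Of 20 notch pathway genes 5 were lower, including the receptors Notch1 (-0.56) and Notch3 (-0.63), and 1 was higher. With the sum as a covariate the lipoprotein receptor median was -0.15 and that of the cadherins -0.19, with no call.

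**Figure D4:**
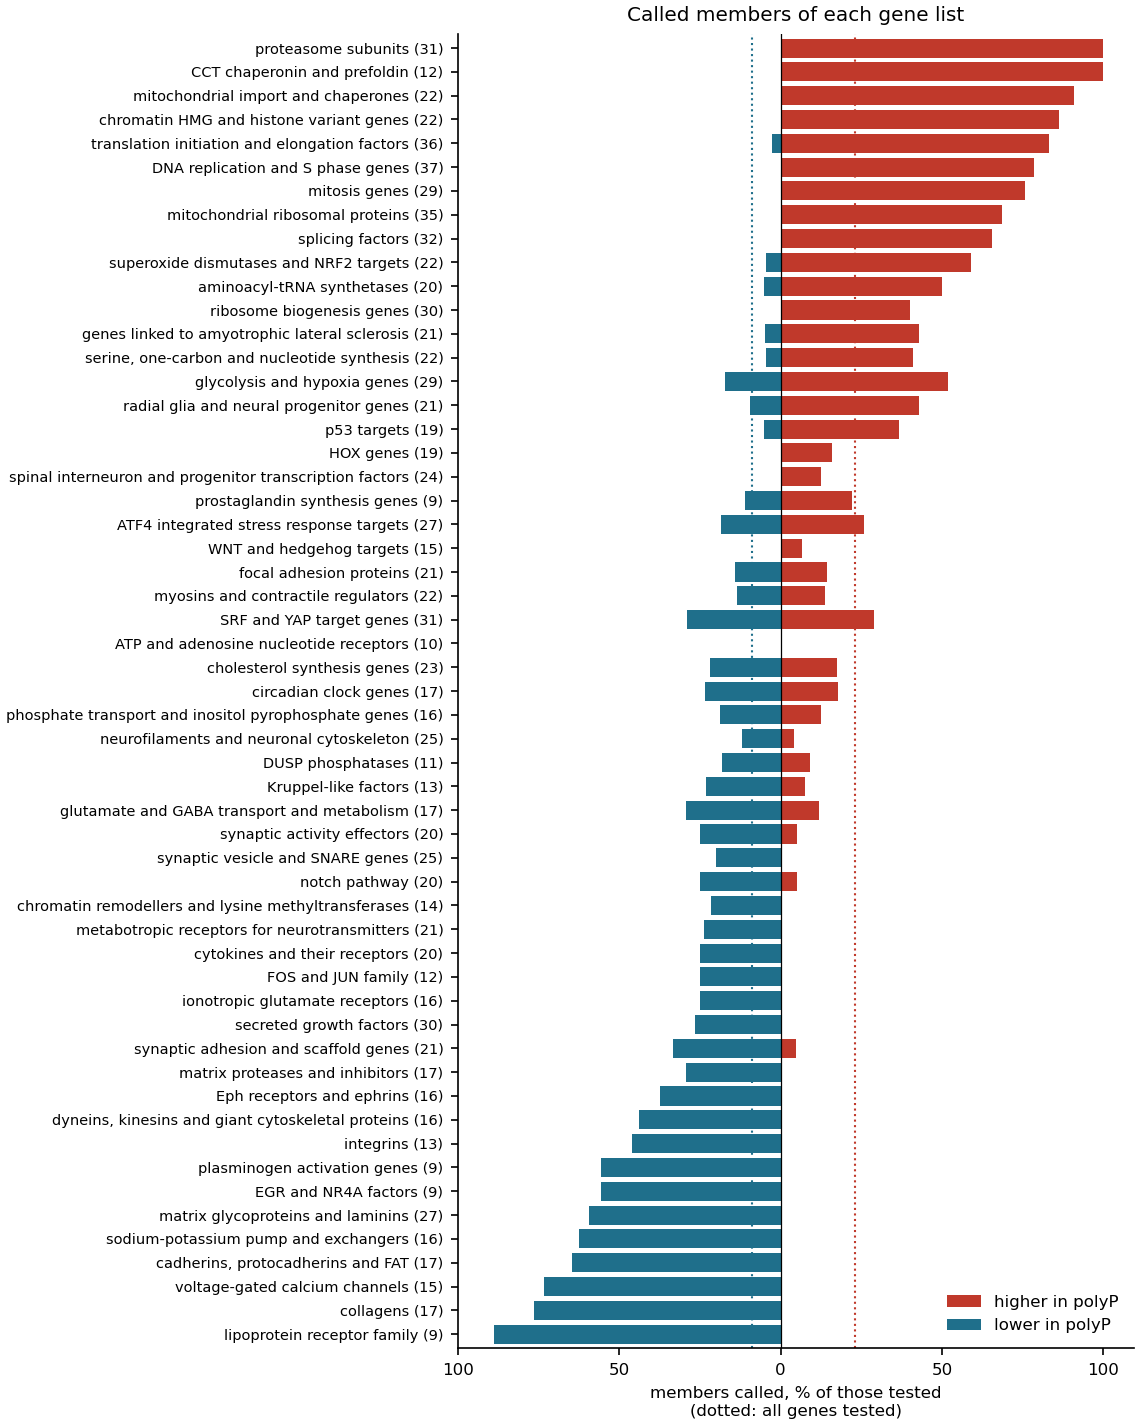
Percent of the tested members of each of the 55 gene lists that were called higher in polyP (red, right) or lower in polyP (blue, left), ordered by the difference; the number tested is in parentheses and dotted lines mark all genes tested. Proteasome and chaperonin genes were called higher throughout, and lipoprotein receptors, collagens and calcium channels head the falls.

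In the lists of calcium channels, ionotropic glutamate receptors, sodium-potassium pump and exchanger genes and synaptic vesicle genes, the called genes were lower. Other ion channel families were not counted as lists. Of 15 voltage-gated calcium channel genes 11 were lower and 0 higher (median -0.55). Cacna1c (24239), the pore of an L-type channel, had 5.29, 4.98, 6.95, 5.91 and 5.84 FPKM in the polyP cultures, against 7.63, 10.3, 8.29, 10.0 and 8.43 FPKM in the controls. No values overlapped, and the log2 difference was -0.55 ± 0.10 (SE, limma adjusted p = 0.00044). Cacna1a, the pore of P/Q-type channels that trigger transmitter release, had 9.06 to 13.9 FPKM in polyP and 15.8 to 22.4 FPKM in control (-0.57), and the auxiliary subunit Cacna2d2 had 30.9 to 40.5 FPKM in polyP and 49.8 to 70.9 FPKM in control (-0.64). Of 16 sodium-potassium pump and exchanger genes 10 were lower and 0 higher (median -0.32), among them Atp2b1 (-0.50), a plasma membrane calcium pump. Limma adjusted p of these 3 genes lay at 0.00402, 0.00317 and 0.000515.

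Of 16 ionotropic glutamate receptor genes 4 were lower and 0 higher. Grin1, the obligatory NMDA receptor subunit, had 29.8, 28.0, 37.1, 36.8 and 34.7 FPKM in the polyP cultures, against 51.7, 48.8, 47.9, 67.7 and 60.8 FPKM in the controls. The groups did not overlap and the log2 difference was -0.71 ± 0.14 (SE, limma adjusted p = 0.000837). Of 25 synaptic vesicle and SNARE genes 5 were lower and 0 higher (median -0.03), with Sv2a, a vesicle glycoprotein, at -0.54 and Slc32a1, the vesicular GABA and glycine transporter, at -0.44. Slc6a5, the neuronal glycine transporter, and Slc12a5, the chloride exporter of mature neurons, differed by -0.56 and -0.73. Ptprn, a receptor-like protein of dense-core vesicles, had 79.2 to 158 FPKM in polyP and 169.7 to 297 FPKM in control (-1.03, limma adjusted p = 0.00182). Of the 9 general neuron markers 0 were called in either direction, with a median of 0.08 and summed FPKM of 1276 to 1733 in polyP and 924 to 1532 in control. Of 7 inhibitory neuron markers 2 were lower and 0 higher, the transporters Slc32a1 and Slc6a5 given above, and of 3 tested excitatory neuron markers 1 was lower and 0 higher. With the sum as a covariate the calcium channel median was -0.32 and none of the 15 was called.

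On the side of the rises, genes of dividing cells stood out. Of 37 DNA replication and S phase genes 29 were higher and 0 lower (median 0.32), and of 29 mitosis genes 22 were higher and 0 lower (median 0.43). Pcna (25737), the sliding clamp of DNA polymerases, had 187, 185, 178, 157 and 164 FPKM in the polyP cultures, against 117, 109, 126, 97.2 and 112 FPKM in the controls. Every polyP value was above every control value, and the log2 difference was 0.63 ± 0.09 (SE, limma adjusted p = 0.000131). Pclaf, a factor that binds PCNA, had 66.3, 63.9, 56.5, 47.7 and 56.8 FPKM in the polyP cultures, against 38.3, 31.7, 41.2, 24.4 and 36.9 FPKM in the controls (0.75, limma adjusted p = 0.000678). Rpa2, of the single-strand binding complex, and Fen1, the flap endonuclease, differed by 0.53 and 0.43. Among mitosis genes, Cks2, a subunit that binds cyclin-dependent kinases, had 29.6 to 37.0 FPKM in polyP and 21.1 to 23.4 FPKM in control (0.56), and Cdc20, an activator of the anaphase-promoting complex, had 37.4 to 43.9 FPKM in polyP and 25.8 to 29.5 FPKM in control (0.52). Cdca3, which promotes entry into mitosis, and Knstrn, of the kinetochore and spindle, differed by 0.69 and 0.65.

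Both lists hold E2F targets, and 2 promoters are shown for that site. E2F factors drive S phase genes. The letters searched were TTTCCCGC, TTTCGCGC and TTTGGCGC on both strands in the 250 bases upstream of the start site (RefSeq, GRCr8), and matches are in capitals. Pclaf lies on the plus strand at chr8:75315467-75315716, and Mcm7, a subunit of the replicative helicase shown because its promoter holds 2 matches, on the minus strand at chr12:22163179-22163428.
Pclaf: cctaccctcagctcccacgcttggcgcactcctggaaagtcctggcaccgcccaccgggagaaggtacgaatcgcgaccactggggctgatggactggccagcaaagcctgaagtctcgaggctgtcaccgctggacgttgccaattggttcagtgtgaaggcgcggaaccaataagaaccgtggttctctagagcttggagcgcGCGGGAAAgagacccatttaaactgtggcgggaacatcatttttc
Mcm7: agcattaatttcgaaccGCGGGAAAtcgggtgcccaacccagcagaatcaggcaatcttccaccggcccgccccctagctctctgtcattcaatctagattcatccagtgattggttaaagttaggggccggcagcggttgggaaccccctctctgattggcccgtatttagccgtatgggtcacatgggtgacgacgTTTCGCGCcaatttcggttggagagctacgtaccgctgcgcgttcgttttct
Mcm7, named after its values were seen, had 68.2 to 80.6 FPKM in polyP and 54.7 to 61.5 FPKM in control (0.38, limma adjusted p = 0.000204). The site was present in 8 of 30 promoters of the replication list (26.7%), in 5.05% of those called higher, 1.88% of those called lower and 2.81% of all 9586. These are descriptions of letters.

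Chromatin proteins of proliferating cells rose with the cell cycle genes. Hmgb2 (29395), a high-mobility-group DNA-bending protein, had 272, 285, 218, 238 and 239 FPKM in the polyP cultures, against 162, 125, 141, 132 and 153 FPKM in the controls. There was no overlap, and the log2 difference was 0.81 ± 0.10 (SE, limma adjusted p = 9.12e-05). Hmgn2, a nucleosome-binding protein, had 506 to 593 FPKM in polyP and 335 to 402 FPKM in control (0.55), and H2afz, the histone variant H2A.Z, had 401 to 482 FPKM in polyP and 272 to 349 FPKM in control (0.57). Of 22 HMG and histone variant genes 19 were higher and 0 lower (median 0.44). Of the 3 lists of dividing cells, 29, 22 and 19 rises became 20, 17 and 17 at equal summed FPKM, where 2 HMG and histone variant genes were called lower.

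With the sum as a covariate the medians were 0.35 for replication, 0.46 for mitosis and 0.21 for HMG genes, with no call. With the classes added, 4, 4 and 2 members were called higher. Hmgb2 differed by 0.50 there, Pcna by 0.42, Cdc20 by 0.36, Knstrn by 0.58 and Hmgn2 by 0.29 (limma adjusted p = 0.00593, 0.0165, 0.0415, 0.0165 and 0.0462).

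Genes of radial glia and neural progenitors, the cells that divide in the embryonic cord, counted 9 higher and 2 lower of 21 (median 0.23). At equal summed FPKM the list counted 5 higher and 3 lower. Fabp7 (80841), a fatty acid-binding protein of radial glia, had 2025, 2164, 1631, 1789 and 1885 FPKM in the polyP cultures, against 1207, 844, 875, 847 and 1143 FPKM in the controls. The lowest polyP value stood above the highest control value, and the log2 difference was 0.96 ± 0.13 (SE, limma adjusted p = 0.000123). With the sum and the classes in the fit it was 0.67 (limma adjusted p = 0.0165). Sox2, a factor that keeps progenitors undifferentiated, had 68.0, 68.8, 70.2, 62.2 and 61.1 FPKM in the polyP cultures, against 43.9, 46.7, 51.6, 32.3 and 35.0 FPKM in the controls, also without overlap (0.66, limma adjusted p = 0.00195). Hopx, a homeodomain protein, had 10.4 to 13.2 FPKM in polyP and 7.36 to 9.33 FPKM in control (0.46). Olig1, a factor of the oligodendrocyte lineage, had 108 to 165 FPKM in polyP and 49.2 to 103 FPKM in control (0.78, limma adjusted p = 0.0131). The 2 members lower in the fit as reported were Tnc and Id2, an inhibitor of basic helix-loop-helix factors, which differed by -0.29. With the sum and the classes in the fit Id2 was at -0.52, and its relatives Id1 and Id3, named after their values were seen, were at -0.67 and -0.87 (limma adjusted p = 0.0165, 0.0325 and 0.00415). Of 24 spinal transcription factors 3 were higher and 0 lower, and of 19 HOX genes 3 were higher and 0 lower. Both shares are below the 23.0% of all genes called higher, and at equal summed FPKM the counts were 1 and 0.

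The machinery that makes, folds and removes proteins was higher across most lists. All 31 proteasome subunits rose (median 0.32, range 0.16 to 0.39), as did all 12 CCT chaperonin and prefoldin subunits (median 0.33). Psma3, a ring subunit of the proteasome core, had 95.0, 96.1, 86.2, 92.6 and 95.6 FPKM in the polyP cultures, against 73.8, 63.8, 78.1, 70.3 and 76.2 FPKM in the controls. The groups did not overlap and the log2 difference was 0.36 ± 0.05 (SE, limma adjusted p = 0.000157). Psmd14, the deubiquitinase of the regulatory particle, differed by 0.37 and Cct8, a chaperonin subunit, by 0.31 (limma adjusted p = 0.000324 and 0.000355). Of 36 translation factors 30 were higher and 1 lower (median 0.27), with Eif2s1, the subunit of eIF2 that stress kinases phosphorylate, at 0.41. Of 32 splicing factors 21 were higher and 0 lower (median 0.26), among them Snrpd1 (0.54), a core protein of spliceosomal particles, and Hnrnpd (0.43), an RNA-binding protein that controls mRNA decay. Of 30 ribosome biogenesis genes 12 were higher and 0 lower, and of 20 aminoacyl-tRNA synthetases 10 were higher and 1 lower.

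Nuclear genes for the mitochondrial ribosome and protein import were higher too. By symbol stem, counted after the data were seen, 10 of 20 Ndufa genes and 4 of 20 Cox genes were higher, and 0 of either were lower. The Cox share of 20% is near the 23.0% of all genes called higher. Of 35 mitochondrial ribosomal proteins 24 were higher and 0 lower (median 0.31), and of 22 import and chaperone genes 20 were higher and 0 lower (median 0.31). Timm8a1, a small chaperone of the intermembrane space, had 31.5, 28.8, 28.1, 29.0 and 28.0 FPKM in the polyP cultures, against 19.9, 16.5, 21.8, 18.0 and 20.7 FPKM in the controls, wholly above control (log2 difference 0.57 ± 0.07 SE, limma adjusted p = 9.37e-05). Mrpl12, of the large mitochondrial ribosomal subunit, differed by 0.42. Hspd1, the mitochondrial chaperonin, had 185 to 207 FPKM in polyP and 134 to 159.9 FPKM in control (0.40, limma adjusted p = 0.000123), and was the member called beside the sum and the classes (0.27, limma adjusted p = 0.0398).

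The proteostasis lists moved with the summed FPKM. The mean of the proteasome list relative to the 19 libraries was 0.06 to 0.24 in polyP and -0.31 to -0.01 in control. With the sum as a covariate the median was 0.03 for proteasome subunits, 0.05 for the chaperonin list, 0.11 for translation factors, 0.03 for mitochondrial ribosomal proteins and 0.02 for import genes, and no member was called. At equal summed FPKM 25 of the 31 proteasome genes, 19 of the 36 translation factors and 19 of the 35 mitochondrial ribosomal proteins were called higher. The aminoacyl-tRNA synthetases lost their direction there, with 5 of 20 higher and 6 lower, and counted 7 higher and 6 lower with median-of-ratios scaling.

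**Figure D5:**
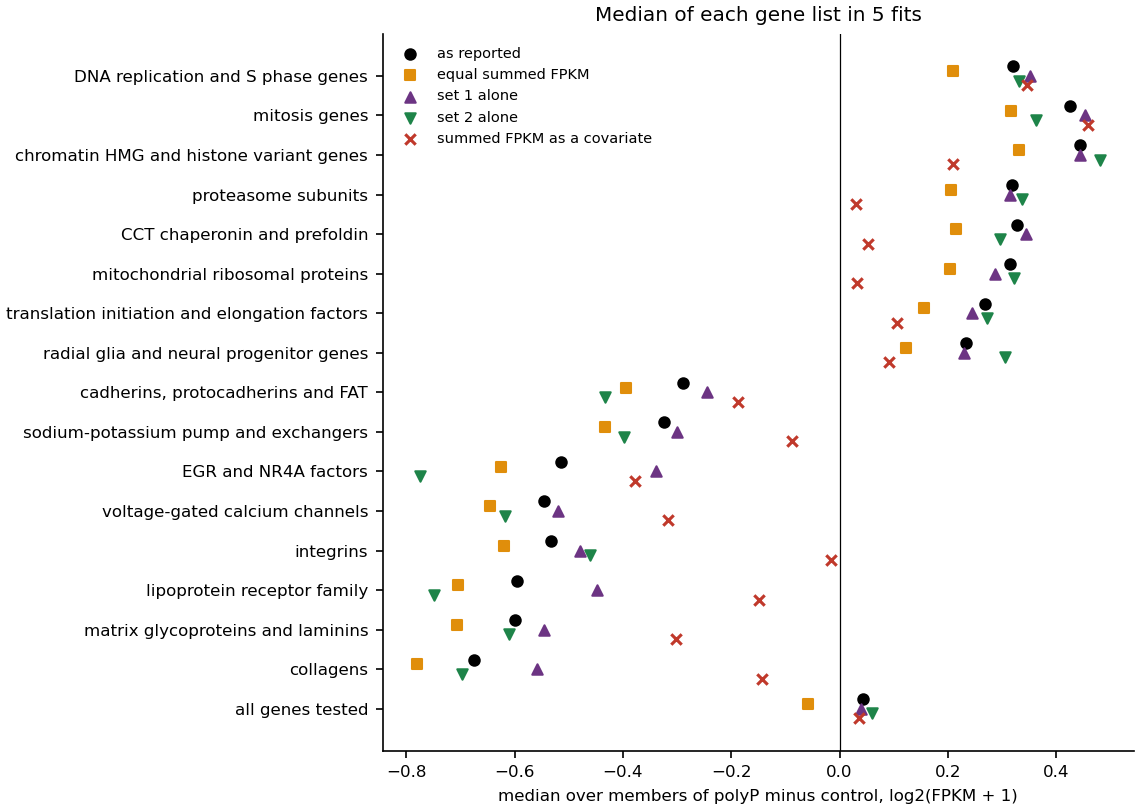
Median over the tested members of polyP minus control (x axis, log2(FPKM + 1)) for 16 gene lists and for all genes tested (y axis), in 5 fits shown as markers. Set 1 and set 2 give the same direction as the fit of all libraries in every list shown. With the summed FPKM as a covariate, medians of the proteasome and integrin lists lie near 0, while the replication, mitosis and EGR lists stay at 0.35, 0.46 and -0.38.

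Metabolic and stress genes split. Glycolysis and hypoxia genes counted 15 higher and 5 lower of 29. Enzymes of glycolysis were among the rises, with Pgam1, phosphoglycerate mutase, at 177 to 207 FPKM in polyP and 123 to 161 FPKM in control (0.45), and Aldoc, the brain aldolase, at 106 to 117 FPKM in polyP and 68.3 to 91.4 FPKM in control (0.42). Genes of glucose entry were among the falls: Slc2a1, the glucose transporter GLUT1, had 42.7, 45.5, 52.6, 31.6 and 38.7 FPKM in the polyP cultures, against 61.5, 84.3, 57.9, 63.3 and 59.7 FPKM in the controls, without overlap (log2 difference -0.62 ± 0.12 SE, limma adjusted p = 0.000893), and Hk2, a hexokinase, differed by -0.49 (limma adjusted p = 0.00698). ATF4 targets of the integrated stress response counted 7 higher and 5 lower of 27, and 4 higher and 9 lower at equal summed FPKM; the share called higher is near the 23.0% of all genes. Ddit4, an inhibitor of mTORC1 signalling, had 48.9, 51.7, 40.8, 51.2 and 48.4 FPKM in the polyP cultures, against 34.7, 23.4, 29.2, 25.9 and 30.8 FPKM in the controls, wholly above control (log2 difference 0.73 ± 0.10 SE, limma adjusted p = 0.000123). The serine synthesis enzymes Psat1 (0.74) and Phgdh (0.38) rose, while the amino acid transporters Slc7a1 (-0.62) and Slc3a2 (-0.44) fell (limma adjusted p = 0.000372, 0.00125, 0.000548 and 0.000305). Psat1 was called beside the sum and the classes (0.43, limma adjusted p = 0.0325). Cholesterol synthesis counted 4 higher and 5 lower of 23, beside 23.0% and 8.77% of all genes. At equal summed FPKM its counts were 0 higher and 7 lower.

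Genes that handle phosphate and nucleotides bear on the agent itself. Slc20a1 (81826), a sodium-phosphate cotransporter that imports phosphate, had 56.8, 60.1, 61.1, 52.6 and 55.7 FPKM in the polyP cultures, against 78.7, 85.9, 69.2, 84.9 and 77.0 FPKM in the controls. The groups did not overlap and the log2 difference was -0.46 ± 0.06 (SE, limma adjusted p = 0.000123). Xpr1, the phosphate exporter, had 42.8, 40.2, 36.1, 32.6 and 26.5 FPKM in the polyP cultures, against 41.9, 34.4, 36.5, 28.1 and 25.9 FPKM in the controls. These overlapped, and the log2 difference was 0.09 ± 0.16 (SE, limma adjusted p = 0.685). Of 16 phosphate transport and inositol pyrophosphate genes 3 were lower and 2 higher, and at equal summed FPKM 7 were lower and 0 higher. Enpp1, which makes pyrophosphate from ATP, differed by -0.36, and Nudt3, which hydrolyses inositol pyrophosphates and polyphosphate, by 0.21 (limma adjusted p = 0.00653 and 0.0141). None of the 10 tested receptors for ATP and adenosine was called (median -0.35), but 2 were lower at equal summed FPKM and 5 with the 3 classes of cultures as a term. P2ry1, the P2Y1 receptor, had 1.37, 1.54, 0.91, 0.82 and 1.03 FPKM in the polyP cultures, against 0.92, 0.97, 1.17, 0.77 and 0.56 FPKM in the controls, and the log2 difference was 0.18 ± 0.11 (SE, limma adjusted p = 0.229). Adk, adenosine kinase, which clears adenosine, had 34.9, 36.9, 32.1, 29.3 and 32.2 FPKM in the polyP cultures, against 23.5, 18.8, 21.9, 19.1 and 19.3 FPKM in the controls, wholly above control (log2 difference 0.66 ± 0.09 SE, limma adjusted p = 0.000131), and 0.43 beside the sum and the classes (limma adjusted p = 0.0165).

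The antioxidant and disease lists moved by small amounts. Sod1, the cytosolic superoxide dismutase, had 249, 258, 207, 256 and 275 FPKM in the polyP cultures, against 221, 169, 196, 195 and 239.6 FPKM in the controls. The groups overlapped, and the log2 difference was 0.29 ± 0.09 (SE, limma adjusted p = 0.0265), a call lost at 5 of the 10 omissions of a single library (limma adjusted p up to 0.0798). Of 22 superoxide dismutase and NRF2 target genes 13 were higher and 1 lower, with the peroxiredoxins Prdx6 (0.47) and Prdx1 (0.45) among them. Of 21 genes linked to amyotrophic lateral sclerosis 9 were higher and 1 lower, among them the RNA-binding protein Tardbp (138 to 142 FPKM in polyP and 118 to 128 FPKM in control, 0.20). At equal summed FPKM the last list counted 4 higher and 2 lower.

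Markers of cell types showed what the cultures held. Chat, the acetylcholine-synthesizing enzyme of motor neurons, was at 0.47, 0.34, 0.49, 0.84 and 0.66 FPKM in the polyP cultures, against 0.45, 0.77, 0.58, 0.96 and 1.21 FPKM in the controls, under the minimum for a test. Of the 8 motor neuron markers, Mnx1, Isl1, Isl2 and Slc5a7 were under 1 FPKM in all 10 libraries. Mbp, myelin basic protein, had 216, 212, 328, 9.61 and 7.94 FPKM in the polyP cultures, against 171, 372, 348, 7.82 and 9.62 FPKM in the controls. It separated set 1 from set 2 and not polyP from control (log2 difference -0.11 ± 1.58 SE, limma adjusted p = 0.965). Gfap, the astrocyte intermediate filament, had 12.9 to 28.8 FPKM in polyP and 14.1 to 36.4 FPKM in control (log2 difference -0.18 ± 0.24 SE, limma adjusted p = 0.591). Of the 8 astrocyte markers 1 was called higher and 1 lower (median 0.03). Of the 11 oligodendrocyte lineage markers 0 were higher and 1 lower, but 4 higher and 2 lower with the 3 classes as a term. Cx3cr1, a receptor of microglia, had 5.19, 3.20, 11.2, 2.95 and 3.59 FPKM in the polyP cultures, against 6.51, 32.8, 17.7, 4.27 and 4.16 FPKM in the controls, with a log2 difference of -0.90 ± 0.53 (SE, limma adjusted p = 0.209). None of the 11 microglia and macrophage markers was called, but their median was -0.72, at -1.21 in set 1 and 0.04 in set 2, and their summed FPKM was 62.3 to 200 in polyP and 58.9 to 637 in control. With the 3 classes of cultures as a term, 5 of the 11 were called lower. The part of these cells in the falls of matrix and protease genes was not tested.

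Sums of other markers also differed between the groups. The 8 fibroblast and meningeal markers, which include collagen genes, summed to 517 to 658 FPKM in polyP and 660.5 to 836 FPKM in control in set 1, and to 344 to 363 FPKM in polyP and 567 to 572 FPKM in control in set 2. Of these 8 markers 1 was called higher and 1 lower. The 7 endothelial markers summed to 8.50 to 11.6 FPKM in polyP and 12.5 to 16.3 FPKM in control, and the 8 skeletal muscle markers to 9.74 to 12.2 FPKM in polyP and 5.79 to 9.60 FPKM in control, both without overlap. Among them Pecam1, Cldn5 and Vwf of the endothelium and Myod1, Myog, Myh3, Myh8 and Ckm of muscle were under 1 FPKM in all 10 libraries. The part of these cells in the differences of matrix and other genes was not tested.

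The remaining genes named by rule had rises of similar size. Among the 15 largest rises without overlap were also S100a16, a small calcium-binding protein (19.4 to 27.3 FPKM in polyP and 12.1 to 18.0 FPKM in control, 0.71), Nde1, a dynein regulator of dividing progenitors (16.1 to 19.6 FPKM in polyP and 10.4 to 11.5 FPKM in control, 0.64), and Nat2, an arylamine acetyltransferase (8.08 to 11.7 FPKM in polyP and 4.56 to 7.54 FPKM in control, 0.67). Among the 5 called rises with the smallest p were Taf13, a subunit of the general transcription factor TFIID, which had 37.4, 37.5, 34.1, 35.8 and 38.3 FPKM in the polyP cultures, against 23.8, 22.1, 25.6, 21.8 and 27.7 FPKM in the controls (log2 difference 0.58 ± 0.06 SE, limma adjusted p = 4.01e-05), and Dek, a chromatin architectural protein, which had 54.7 to 62.0 FPKM in polyP and 36.7 to 44.4 FPKM in control (0.50). Neither overlapped between the groups.

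The other gene lists stood as follows, beside the 23.0% of all genes that were higher and the 8.77% that were lower. Of 21 metabotropic receptor genes 5 were lower and 0 higher, of 21 synaptic adhesion and scaffold genes 7 were lower and 1 higher, and of 17 genes for glutamate and GABA handling 5 were lower and 2 higher. Chromatin remodellers counted 3 lower and 0 higher of 14, neurofilament and neuronal cytoskeleton genes 3 lower and 1 higher of 25, and Kruppel-like factors 3 lower and 1 higher of 13. Targets of p53 counted 7 higher and 1 lower of 19, clock genes 3 higher and 4 lower of 17, myosins and contractile regulators 3 higher and 3 lower of 22, prostaglandin synthesis genes 2 higher and 1 lower of 9, and WNT and hedgehog targets 1 higher and 0 lower of 15.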

How the data were processed

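RNA-seq of polyadenylated RNA from 19 rat spinal cord cultures was deposited as a table of FPKM per gene. Per the submitters' processing notes, the tools named include HISAT and the build is rn6. Not given in the sources used here: versions, the gene annotation, the program that gave the FPKM, its scaling, and how reads shared between genes were handled. The deposited FPKM hold no counts, so no count model was used and the absolute depth is unknown. Relative depth came from 127 rarely detected genes, of whose 701 values 78.7% were whole numbers of fragments within 0.1.

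Groups were taken from the sample titles. Values were analysed as log2(FPKM + 1), which understates the change of low genes, with limma 3.58.1 (R 4.3.3, statmod 1.5.0) in 1 fit of 4 groups, with trended and robust empirical Bayes, for genes at 1 FPKM or more in at least 4 libraries. P-values were adjusted by Benjamini-Hochberg over all 11887 genes and called under 0.05. They measure the spread between libraries that the labels describe as independent cultures. Same-numbered polyP and control libraries were not treated as pairs, since the labels do not say that the numbers pair. The correlation of their deviations from the group means was 0.635, 0.068, 0.508, 0.662 and 0.688, so deviations were shared except at replicate 2. The fit as reported leaves this out. With the replicate number as a term it gave 3592 higher and 2138 lower, and with the culture set 3886 and 2308. Sums of FPKM were compared by an exact two-sided permutation test. Figures and summaries used Python 3.11.15 with numpy 2.4.6, pandas 2.3.3 and matplotlib 3.10.9. Promoters came from RefSeq on GRCr8, matched by identifier or symbol for 9586 genes, and were not combined with rn6 coordinates.

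The members, the 55 gene lists and the 12 lists of cell type markers were chosen with earlier results of these data known. Named genes were the 15 largest called rises and falls without overlap and with a group mean of at least 5 FPKM, up to 5 called members of each list in each direction by smallest p, the 5 called genes with the smallest p in each direction, 9 genes fixed whatever their result, and the 3 genes on either side of the FPKM minimum. The text describes 112 genes beside those at the minimum and marks those outside the rule; some genes the rule named are not reported here. Alternatives covered the pseudocount, the filter, 3 scalings, the libraries in the fit, terms for culture set or class, empirical Bayes settings, the replicate number as a block and the omission of each library. Fits with the summed FPKM as a covariate, scaling combined with classes, symbol stems and promoter motifs were added after the data were seen.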

Additional observations from a re-analysis of the deposited data

Results flagged for a closer look

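In 8 groups of 5 libraries a single value stood far from the other 4, by Dixon's gap test with a critical value of 0.71. Chance flags about 1 in 20 groups. The search covered polyP and control for the 112 genes described and those at the FPKM minimum. The 8 flags are thus no more than that rate gives. In polyP replicate 3, Plat was 229.4 FPKM, Flnc 94.73 FPKM, Hnrnpd 199.02 FPKM and Cx3cr1 11.24 FPKM. In polyP replicate 2, Slc12a5 was 24.9 FPKM. In control replicate 2, Fat1 was 122.1 FPKM and Slc2a1 84.31 FPKM. In control replicate 5, Cpn1 was 1.34 FPKM.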

How the results depend on the processing

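Against 2736 genes higher and 1043 lower in polyP as reported, the count higher was 1793 with median-of-ratios scaling, 1404 at equal summed FPKM, 4121 with 3 culture classes as a term, 1819 in set 1 alone, 0 with the summed FPKM as a covariate and 55 with that covariate and the classes. The count lower was 1667 at equal summed FPKM, 2308 with culture set as a term, 2510 with 3 classes, 651 in set 1 alone, 2144 in set 2 alone, 0 with the covariate and 20 with the covariate and the classes. Combined with the classes, median-of-ratios scaling gave 3466 lower and equal summed FPKM 3715. The cause of these moves was not tested. Rises made up 72.4% of calls as reported, 53.7% with median-of-ratios scaling, 45.7% at equal summed FPKM and 67.7% with quantile normalization. Leaving out each library in turn gave 2322 to 2771 higher and 789 to 1251 lower. With the replicate block the fit gave 3592 higher and 2138 lower; the numbers share no stated origin, and polyP 2 and polyP 3 correlated best with controls of another number. The change by protein length was not run.

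Genes that the rule named but that are not described here are left out of this list. Some of them reversed sign with the covariate, such as Tpm2 (0.53 as reported, -0.13 with it) and Myo9b (-0.55 and 0.17). Among the genes described, reversals of sign were those that follow. Only those of Actb, Tagln, Myl9, Col4a1, Fat1, Notch1, Nudt3 and Sod1 concern called genes, and none was called in the reversed direction. With the covariate, values were 0.0154 for Fos, -0.11 for Tagln, 0.0028 for Col4a1, -0.10 for Nudt3, -0.15 for Sod1, 2.95 for Mbp, 0.63 for Gfap and 1.00 for Cx3cr1. With the covariate and the classes, they were -0.0787 for Actb, -0.042 for Myl9, 0.0099 for Fat1, 0.0705 for Notch1, -0.0651 for Nudt3, -0.0075 for Sod1 and 0.12 for Gfap. Fos was 0.11 in set 1 alone. Mbp was 0.0707 with classes and 0.0091 in set 2 alone. Xpr1 was -0.0163 at equal summed FPKM, and with the classes -0.0273 there and -0.0003 with median-of-ratios scaling. Over the omissions of a library, Fos ran from -0.1623 to 0.1017, Mbp from -0.869 to 0.63 and Gfap from -0.33 to 0.0033.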

Other observations

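Symbols that share a stem, counted after the data were seen for 112 stems of at least 12 tested genes, gave further groups. Lower in polyP were 10 of 13 gamma protocadherins (Pcdhg), which give neurons surface identity, 10 of 16 Adamts-type secreted metalloproteases (stem Adamt), 7 of 19 semaphorins (Sema), which guide axons, and 67 of 233 solute carriers (Slc), while 18 solute carriers were higher. Higher were all 46 large-subunit ribosomal proteins (Rpl), 32 of 42 of the small subunit (Rps, 1 lower), 16 of 18 heterogeneous nuclear ribonucleoproteins (Hnrnp), 10 of 12 Lsm RNA-binding proteins and 36 of 52 initiation factors (Eif). At equal summed FPKM 17 of the 52 Eif genes were higher, and with quantile normalization 23 of them, 29 of the 46 Rpl and 16 of the 42 Rps genes; of the 16 Adamt genes 4 were lower with quantile normalization, and of the 19 Sema genes 11 were lower at equal summed FPKM. Ribosomal protein genes have many processed copies, so their FPKM are uncertain. With the summed FPKM as a covariate no member of these stems was called.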
